A study of Mus musculus with 18 samples.

Results

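Expression of 9 genes of the complement system was followed through RNA-seq libraries of retinal pigment epithelium (RPE) from young mice: the components *C3*, *C4b*, *C2*, *Cfb* and *Cfd*, and the regulators *Cfi*, *Cd55*, *Cd59a* and *Serping1*. These 9 of the 52636 genes in the count table were picked by symbol, with their levels in all groups already known, so their values are given as a description and without a test. All mice were C57BL/6 and were sampled at postnatal day 14, with 3 libraries in each of 6 groups. One group was uninjected, and the others carried adeno-associated virus (AAV8) injected under the retina of newborn pups, with the Best1 promoter, which is active in RPE, driving the cargo. The cargo was GFP, nSREBP2 (the nuclear, active form of the sterol regulator SREBP2), a control hairpin against *LacZ* (ctrl sh), or 1 of 2 hairpins against the endocytic receptor *Lrp2* (*Lrp2* sh1 and *Lrp2* sh2). Each library held both eyes of 1 mouse, from RPE loosened with papain after the retina had been taken out, so other cells of the eye wall could come along. Both *Lrp2* hairpins shared the same ctrl sh libraries, and both vector controls shared the same uninjected libraries.

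Complement is a cascade of blood and tissue proteins that marks cells and debris for removal. C1q with its proteases, or the lectin pathway proteases, cleave C4 and C2 to form an enzyme that splits C3, and factor B and factor D build another such enzyme in the alternative pathway, which amplifies C3 cleavage. Factor I, CD55, CD59 and C1 inhibitor hold the cascade back at successive steps, and the RPE is known to be a source of such regulators at the border between the retina and the choroid.

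The promoter windows of the members whose levels spread most between groups, *C3* and *Cd55*, and of *Cd59a*, which stood lower with nSREBP2, are shown as a reference for these genes. RefSeq windows were found for 4 of the 9 members (*C3*, *Cfd*, *Cd55* and *Cd59a*), on GRCm38.p6, and the 250 bases before the start of transcription are printed 5′ to 3′ on the strand of the gene. They lie at chr17:57228137-57228386 on the minus strand for *C3*, chr1:130462745-130462994 on the minus strand for *Cd55* and chr2:104095551-104095800 on the plus strand for *Cd59a*. Capitals mark a match on either strand to GAS (TTCNNNGAA), ISRE (GAAA, any 2 bases, GAAA), the kappa-B motif, the E-box (CACGTG) or a short SRE-like sequence (GTGGGG).
C3: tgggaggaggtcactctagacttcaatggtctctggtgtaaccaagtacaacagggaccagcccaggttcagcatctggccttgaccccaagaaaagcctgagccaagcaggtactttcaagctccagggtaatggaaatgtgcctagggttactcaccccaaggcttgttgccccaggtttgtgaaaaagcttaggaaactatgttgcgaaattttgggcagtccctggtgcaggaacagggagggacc
Cd55: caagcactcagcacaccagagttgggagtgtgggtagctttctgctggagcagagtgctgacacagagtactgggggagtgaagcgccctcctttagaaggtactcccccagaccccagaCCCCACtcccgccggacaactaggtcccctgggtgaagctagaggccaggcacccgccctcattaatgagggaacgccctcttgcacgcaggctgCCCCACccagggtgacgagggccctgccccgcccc
Cd59a: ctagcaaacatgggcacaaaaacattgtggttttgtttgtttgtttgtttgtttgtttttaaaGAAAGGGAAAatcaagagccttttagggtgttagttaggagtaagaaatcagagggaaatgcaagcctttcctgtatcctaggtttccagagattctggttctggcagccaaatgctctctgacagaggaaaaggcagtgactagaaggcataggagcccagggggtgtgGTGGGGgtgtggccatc
The *C3* window held none of these letters, and the *Cd55* window held the SRE-like sequence at 2 places on the opposite strand. The *Cd59a* window held 1 ISRE, beginning 187 bases before the start, and 1 SRE-like sequence. No match of the 5 motifs overlapped another one in these windows. Among 32851 RefSeq windows of the same length, 25.5% held the SRE-like sequence, 2.98% ISRE, 7.02% GAS, 7.25% the kappa-B motif and 6.02% the E-box. A match describes the letters only, and the short SRE-like sequence was common.

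In GENCODE M21, on GRCm38, *C3* (ENSMUSG00000024164.15) lies on chromosome 17 from 57203970 to 57228136, apart from the other members of that chromosome. *C4b* (34728380 to 34743882), *Cfb* (34856374 to 34862518) and *C2* (34862604 to 34898265) lie close together on chromosome 17, on the same strand, within the major histocompatibility complex. *Cd55* lies on chromosome 1 (130439027 to 130462744), *Serping1* and *Cd59a* on chromosome 2 (84765387 to 84775444 and 104095801 to 104115354), *Cfi* on chromosome 3 (129835884 to 129875332) and *Cfd* on chromosome 10 (79890853 to 79892655). A readthrough gene, *Gm20547*, covers 79.5% of the exon bases of *Cfb* and 42.8% of those of *C2* on the same strand, and it was listed at 0 counts in every library. Counts of *Cfb* and *C2* are uncertain for that reason. *C4b* has a near-identical copy, *C4a*, counted at 0.193 to 2.07 CPM (counts per 1000000 counts of the library, after TMM normalization), and reads that match both copies can be missing from either.

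Sequencing depth was 8921885 to 13696934 counts per library, and a count of 0 to 3 corresponds to at most 0.216 to 0.327 CPM. *Lrp2* itself stood at 29.7 to 42.8 CPM with sh1 and at 34.6 to 43.6 CPM with sh2, against 87.7 to 166 CPM with ctrl sh. *Srebf2*, which encodes SREBP2, stood at 208 to 233 CPM with nSREBP2 against 83.5 to 113 CPM with GFP. The libraries differed in their makeup as well. The summed level of 12 RPE markers was 2996 to 8485 CPM in uninjected, 944 to 1152 CPM in GFP, 751 to 1054 CPM in nSREBP2, 2432 to 4558 CPM in ctrl sh, 2028 to 2829 CPM in *Lrp2* sh1 and 1156 to 1726 CPM in *Lrp2* sh2. *Rpe65*, a defining marker, had a mean of 819 CPM in uninjected and 1.65 CPM in GFP, and over the 15 injected libraries it ranged from 1.06 to 97.0 CPM with a median of 3.50 CPM, so this gene was close to absent from most of them. The labels give the tissue as retinal and name the source as RPE. Fibroblast markers summed to 19116 to 86910 CPM over all libraries and were the most abundant of the lists. In such bulk samples, fewer cells of a type and less RNA per cell cannot be told apart. Counts from Y-linked genes were present in the 3 nSREBP2 libraries, in uninjected replicate 3 and in *Lrp2* sh2 replicates 2 and 3, and were near 0 in the other 12, including all 3 GFP libraries, so sex and treatment cannot be told apart in nSREBP2 versus GFP. *Lrp2* sh2 replicate 1 stood apart from replicates 2 and 3 for several of the genes below, and the values most affected are given without it too. Without it, every *Lrp2* sh2 library left held Y-linked counts, while all ctrl sh and *Lrp2* sh1 libraries were near 0. In those values sex and hairpin cannot be told apart.

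*Serping1* and *C4b* made up most of the complement RNA among the members. *Serping1*, which encodes C1 inhibitor, took 49.9% to 58.9% of the members' summed CPM in uninjected libraries, and *C4b* took 29.6% to 37.3%. Per kilobase of exon, which allows levels of different genes to be compared, uninjected RPE held 92.2 ± 4.91 CPM per kb of *Serping1* (SD, n = 3), 22.8 ± 3.45 of *C4b*, 6.84 ± 1.23 of *Cd59a*, 3.70 ± 0.946 of *C2*, 2.38 ± 0.483 of *Cd55* and 1.40 ± 0.0783 of *C3*. In this order *C2* and *Cd55* had overlapping ranges, whereas the other neighbours did not. On the same scale, *C3* stood at 6.75 ± 0.424 and *Cd55* at 6.79 ± 0.762 in nSREBP2 libraries, with ranges that overlapped.

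*C3*, the central protein of the cascade, had the widest spread of group means among the members. In uninjected libraries it stood at 6.83, 7.64 and 7.20 CPM in replicates 1, 2 and 3. In GFP it stood at 5.38, 5.66 and 4.82 CPM and in nSREBP2 at 32.7, 37.0 and 34.3 CPM. With hairpins, *C3* stood at 4.10, 5.31 and 4.64 CPM in ctrl sh, at 5.37, 6.03 and 5.77 CPM in *Lrp2* sh1 and at 88.4, 19.3 and 19.1 CPM in *Lrp2* sh2. The nSREBP2 and *Lrp2* sh2 libraries were all higher than every library of the other 4 groups, and they overlapped each other because of replicate 1 of *Lrp2* sh2. The fitted log2FC was 2.72 (SE 0.11, a 6.59-fold difference) for nSREBP2 versus GFP and 3.19 (SE 0.60) for *Lrp2* sh2 versus ctrl sh. In a fit of all 18 libraries with sex as a term the first value was 4.12, and without *Lrp2* sh2 replicate 1 the second value was 2.04. The sex term is estimated within uninjected and *Lrp2* sh2 only, and in *Lrp2* sh2 only replicate 1 was without Y-linked counts. *Lrp2* sh1 versus ctrl sh gave 0.29 (SE 0.17), with all sh1 libraries above all ctrl sh libraries by a small margin. Both vector controls lay below uninjected, with log2FC of −0.46 (SE 0.17) for GFP and −0.64 (SE 0.17) for ctrl sh.

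**Figure D1:**
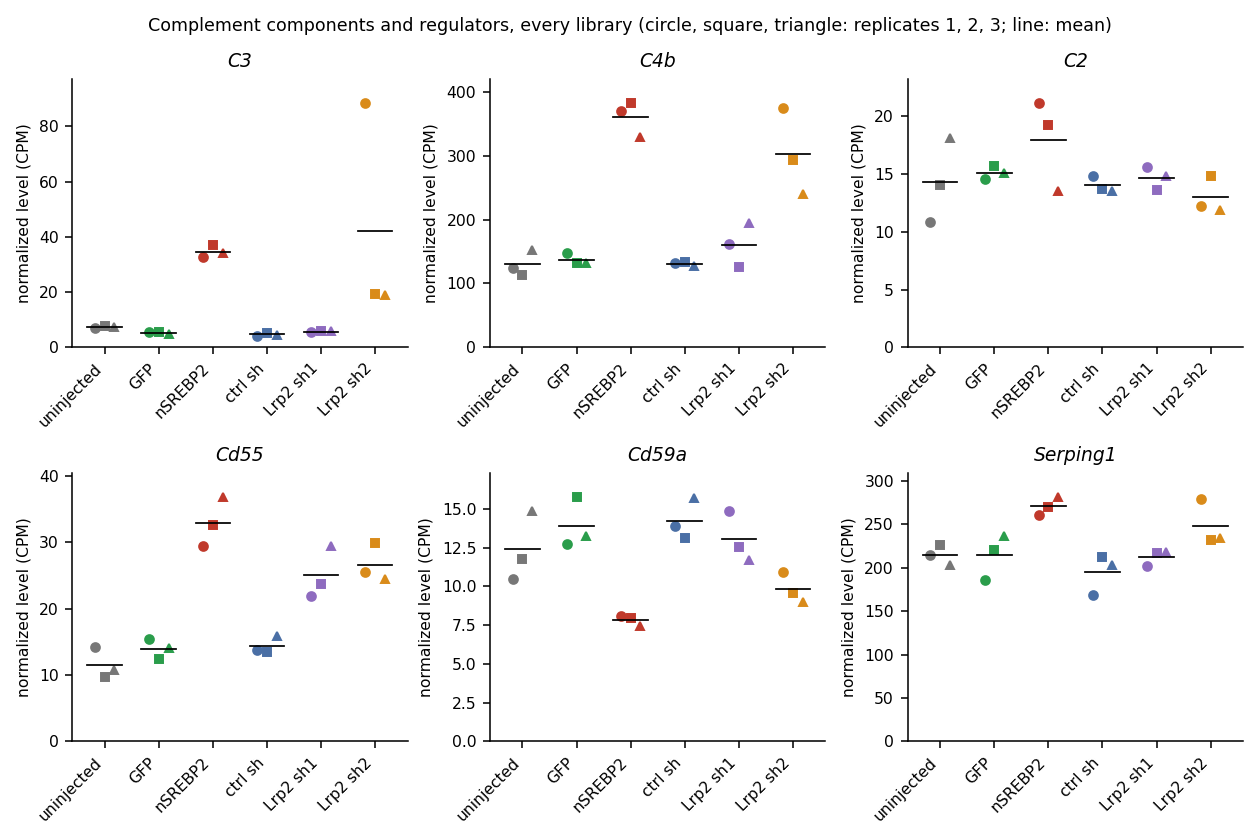
Normalized level (CPM, y axis from 0) of the 6 members that passed the low-count filter in each of the 18 libraries, by group on the x axis, with the mean of each group as a line. C3 was 32.7 to 37.0 CPM with nSREBP2 and 88.4 CPM in replicate 1 of Lrp2 sh2 against 4.10 to 7.64 CPM in uninjected, GFP, ctrl sh and Lrp2 sh1 libraries.

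*C4b*, the component cleaved next to C2 in the classical and lectin pathways, stood at 124, 114 and 152 CPM in uninjected, at 147, 131 and 132 CPM in GFP and at 371, 382 and 330.2 CPM in nSREBP2. In the hairpin groups it stood at 132, 134 and 128 CPM with ctrl sh, 161, 126 and 194 CPM with *Lrp2* sh1, and 374, 294 and 239 CPM with *Lrp2* sh2. As for *C3*, the nSREBP2 and *Lrp2* sh2 libraries overlapped each other and lay above all others. Fitted log2FC was 1.40 (SE 0.08, 2.65-fold) for nSREBP2 versus GFP, 1.21 (SE 0.14) for *Lrp2* sh2 versus ctrl sh and 0.29 (SE 0.13) for *Lrp2* sh1 versus ctrl sh, where the groups overlapped. Leaving out *Lrp2* sh2 replicate 1 gave 1.03. *C4b* became the largest share of the members' RNA in both groups, at 46.9% to 51.2% with nSREBP2 and 44.2% to 49.0% with *Lrp2* sh2.

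*C2*, the protease partner of C4b, showed no comparable difference. It stood at 10.8, 14.0 and 18.1 CPM in uninjected, 14.5, 15.7 and 15.1 CPM in GFP, and 21.1, 19.3 and 13.5 CPM in nSREBP2. Its level was 14.8, 13.7 and 13.5 CPM in ctrl sh, 15.6, 13.6 and 14.8 CPM in *Lrp2* sh1 and 12.3, 14.8 and 11.9 CPM in *Lrp2* sh2. All groups overlapped, and its fitted log2FC was 0.26 (95% interval −0.05 to 0.56) for nSREBP2 versus GFP, or −0.08 with sex as a term, and −0.10 (−0.35 to 0.14) for *Lrp2* sh2 versus ctrl sh. The intervals do not show that the groups were alike.

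The alternative pathway genes *Cfb*, which encodes the precursor of the C3-cleaving protease factor B, and *Cfd*, which encodes factor D, were at the edge of detection. *Cfb* had 3 to 19 counts per library, with its highest level, 1.51 CPM, in *Lrp2* sh2 replicate 1, against 0.420 and 0.583 CPM in replicates 2 and 3 of that group. *Cfd* had 0 to 7 counts, and 2 libraries had none, which allows up to 0.279 CPM in nSREBP2 replicate 1 and up to 0.252 CPM in *Lrp2* sh2 replicate 2. *Cfi*, which encodes the protease that cuts C3b and C4b once a cofactor holds them, had 0 to 6 counts in all libraries except *Lrp2* sh2 replicate 3, where 17 counts gave 1.42 CPM. None of the 3 genes passed the low-count filter in any comparison, so no fold change was fitted for them. Over these 3 genes and the 6 comparisons, groups did not overlap in 3 instances, and nothing is read from them. Of genes that passed the filter, groups did not overlap for 25.2% to 39%, depending on the comparison. *Cfd* was at 0 to 0.272 CPM with nSREBP2 against 0.354 to 0.598 CPM with GFP, where no nSREBP2 library held over 3 counts and each GFP library held at least 4. *Cfb* was at 0.647 to 1.35 CPM with ctrl sh against 0.327 to 0.580 CPM in uninjected, and *Cfi* at 0.336 to 1.42 CPM with *Lrp2* sh2 against 0.0848 to 0.237 CPM with *Lrp2* sh1. The counts behind these ranges were 0 to 17 per library. The upper limits given for counts of 0 cover counting error only.

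**Figure D2:**
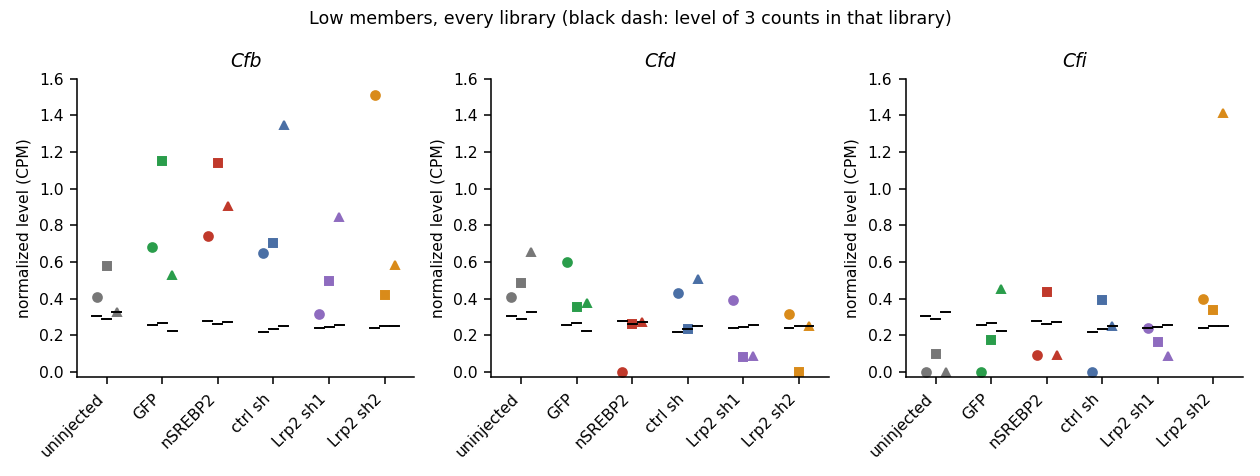
Normalized level (CPM, y axis) of Cfb, Cfd and Cfi in each library, by group on the x axis; circle, square and triangle are replicates 1, 2 and 3, and the black dash is the level that 3 counts give in that library. Most points lie near the dash, and the highest are Cfb in Lrp2 sh2 replicate 1 (1.51 CPM) and Cfi in Lrp2 sh2 replicate 3 (1.42 CPM).

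*Cd55*, which encodes the membrane protein that speeds the decay of the C3-cleaving enzymes, stood higher in each of the groups given nSREBP2 or an *Lrp2* hairpin. It stood at 14.2, 9.67 and 10.8 CPM in uninjected, 15.4, 12.5 and 14.0 CPM in GFP, and 29.4, 32.7 and 36.8 CPM in nSREBP2. The ctrl sh libraries held 13.7, 13.5 and 15.8 CPM, the *Lrp2* sh1 libraries 22.0, 23.8 and 29.4 CPM and the *Lrp2* sh2 libraries 25.5, 29.9 and 24.5 CPM. The lowest of these 9 libraries, at 22.0 CPM, was above the highest of the other 9, at 15.8 CPM. *Lrp2* sh1 and *Lrp2* sh2 overlapped each other. The log2FC was 1.24 (SE 0.12, 2.37-fold) for nSREBP2 versus GFP, 0.80 (SE 0.13, 1.74-fold) for *Lrp2* sh1 versus ctrl sh and 0.90 (SE 0.12, 1.87-fold) for *Lrp2* sh2 versus ctrl sh, and it was 0.10 (SE 0.12) between the hairpins. Among the members, it alone differed by more than 0.5 on the log2 scale with *Lrp2* sh1.

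*Cd59a*, which encodes the membrane inhibitor of the final, pore-forming step, stood lower with nSREBP2. Its level was 10.5, 11.8 and 14.8 CPM in uninjected, 12.7, 15.7 and 13.3 CPM in GFP and 8.09, 7.97 and 7.44 CPM in nSREBP2. In ctrl sh it was 13.9, 13.1 and 15.7 CPM, in *Lrp2* sh1 14.9, 12.6 and 11.7 CPM and in *Lrp2* sh2 10.9, 9.58 and 8.99 CPM. The nSREBP2 libraries were below every other library, and the *Lrp2* sh2 libraries were below all ctrl sh, *Lrp2* sh1 and GFP libraries while overlapping uninjected. The log2FC was −0.82 (SE 0.14) for nSREBP2 versus GFP, −0.52 (SE 0.13) for *Lrp2* sh2 versus ctrl sh and −0.13 (SE 0.12) for *Lrp2* sh1 versus ctrl sh. So both membrane regulators of the list differed in opposite directions with nSREBP2 and with *Lrp2* sh2.

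*Serping1*, whose product inactivates the C1 proteases and the lectin pathway proteases, differed less between groups than *C3*, *C4b* or *Cd55*. It stood at 214, 226 and 203 CPM in uninjected, 187, 221 and 236.5 CPM in GFP and 261, 270.25 and 281 CPM in nSREBP2. The ctrl sh libraries held 169, 213 and 203 CPM, *Lrp2* sh1 202, 217 and 219 CPM and *Lrp2* sh2 279, 232 and 235 CPM. The nSREBP2 libraries were above all GFP libraries and the *Lrp2* sh2 libraries above all ctrl sh libraries, with log2FC of 0.34 (SE 0.09) and 0.36 (SE 0.10). With *Lrp2* sh1 the log2FC was 0.12 (SE 0.09) and the groups overlapped.

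Counted over the list, 6 of the 9 members passed the low-count filter in every comparison. In nSREBP2 versus GFP, 3 of them (*C3*, *C4b* and *Cd55*) were higher past the limits used for calls over all genes, an adjusted *P* under 0.05 in edgeR's quasi-likelihood test with an absolute log2FC above 1, and none was lower. Of all 17927 genes tested, 6.67% were past these limits, 4.71% in the higher direction. Groups did not overlap for 5 of the 6, against 38.2% of all genes. In *Lrp2* sh2 versus ctrl sh, 2 members (*C3* and *C4b*) were higher past the limits, where 4.76% of 18089 genes were past them, 2.98% in the higher direction, and groups did not overlap for 5 of the 6, against 36.8%. In *Lrp2* sh1 versus ctrl sh, 0 members were past the limits by edgeR or by DESeq2, where 0.994% of 17801 genes were, and 2 (*C3* and *Cd55*) had groups that did not overlap, against 25.2%. The median log2FC of the 6 was 0.79, 0.63 and 0.20 in these comparisons in the order given, beside −0.02, 0.01 and −0.01 over all genes tested. Since the members were chosen with these levels in view, nothing further is read from the counts.

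**Figure D3:**
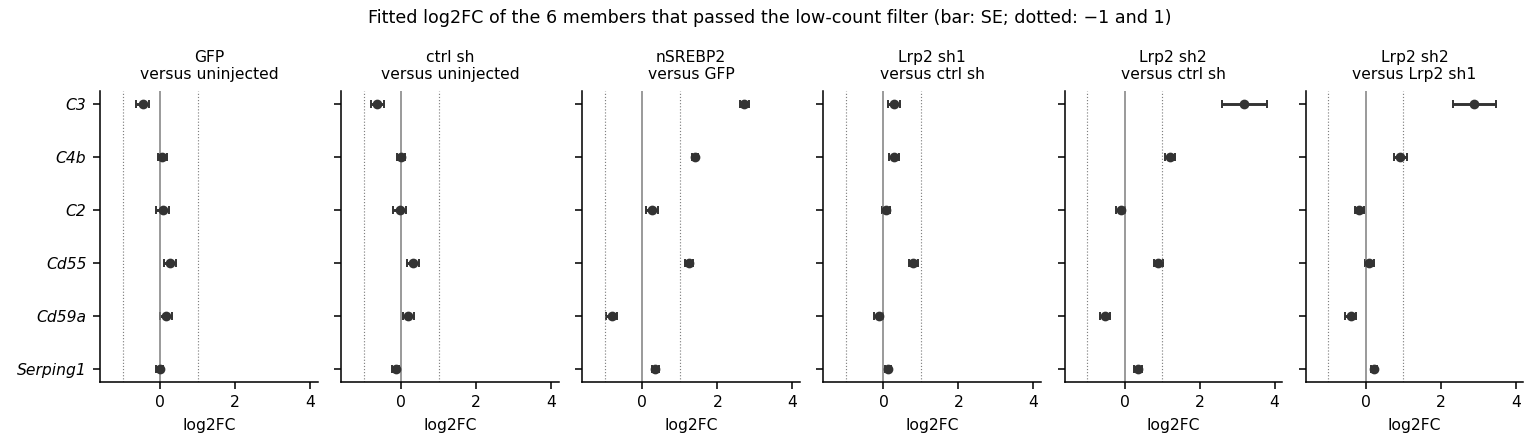
Fitted log2FC (x axis) of the 6 members that passed the low-count filter, 1 panel for each of the 6 comparisons, with the SE as a bar and dotted lines at −1 and 1. C3, C4b and Cd55 lie above 1 for nSREBP2 versus GFP, C3 and C4b for Lrp2 sh2 versus ctrl sh, and all members lie between −1 and 1 for Lrp2 sh1 versus ctrl sh and for the vector controls versus uninjected.

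Injection of a vector with a control cargo was assessed by comparing GFP and ctrl sh with uninjected libraries. The parts of the injection, the vector and the cargo cannot be told apart in these groups. Members differed little apart from *C3*: log2FC was −0.01 to 0.26 for the other 5 with GFP and −0.15 to 0.30 with ctrl sh. No member was past the limits by edgeR or DESeq2, where 1.41% of all genes were with GFP and 2.39% with ctrl sh, and of the 6 members that passed the filter *C3* alone had groups that did not overlap, against 25.6% and 31.8% of all genes. Comparing the hairpins directly, *Lrp2* sh2 versus *Lrp2* sh1, gave a log2FC of 2.90 (SE 0.58) for *C3*, or 1.75 without *Lrp2* sh2 replicate 1, and of 0.92 (SE 0.17) for *C4b*, or 0.73 without that library. In that comparison 1 member (*C3*) was higher past the limits, where 5.13% of all genes were past them, 3.32% in the higher direction, and 4 of the 6 had groups that did not overlap, against 39% of all genes.

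*P*-values below set a difference between groups against the spread between these mice. For the rest of the pathway, 49 other complement genes were listed by role, and unlike the members they were tested. These lists, like those of markers, acute phase and interferon genes, were drawn up with earlier results of these data known. Counts over them are therefore not those of an independent set. Of the 49, 20 stayed under 1 CPM in every library. Among these 20 were the mannose-binding lectins *Mbl1* and *Mbl2* and the membrane attack genes *C6*, *C8a*, *C8b* and *C9*. Between 25 and 27 passed the low-count filter, depending on the comparison. Abundant ones were *Clu* (clusterin, an inhibitor of the terminal complex), with a mean of 697 CPM over all libraries, and *Cd93*, a receptor found mainly on endothelium, with 398 CPM. Terminal components were scarce: *C8g* had a mean of 2.51 CPM, *Hc*, which encodes C5, 0.301 CPM and *C7* 0.240 CPM.

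With nSREBP2, 9 of the 26 other complement genes tested differed from GFP, 7 higher and 2 lower, where 4.71% of all genes were higher and 1.96% lower. Genes for chains of C1q, which starts the classical pathway, rose together. *C1qb* went from 31.97, 34.4 and 41.0 CPM in GFP to 89.7, 86.0 and 84.4 CPM in nSREBP2 (log2FC 1.28, SE 0.09, adjusted *P* = 1.92e-05), and *C1qc* rose by 1.05 (SE 0.07, adjusted *P* = 1.58e-05), or by 0.97 when library totals were used without TMM. *C1qa*, the remaining chain, had a log2FC of 1.0 (SE 0.12) and passed the adjusted *P* but not the limit on size. The C1 proteases moved less, with log2FC of 0.15 (SE 0.10) for *C1ra* and 0.32 (SE 0.09) for *C1s1*. *Masp1*, a protease gene of the lectin pathway, rose from 2.65, 3.01 and 3.39 CPM to 9.49, 10.9 and 10.4 CPM (log2FC 1.76, SE 0.18, adjusted *P* = 0.000134).

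Of 7 receptor genes tested, 4 rose with nSREBP2. *Itgax*, the alpha chain of complement receptor 4, went from 1.88, 1.59 and 1.88 CPM in GFP to 33.1, 28.3 and 24.2 CPM. The log2FC was 3.99 (SE 0.17, adjusted *P* = 8.54e-07), the largest of the list, or 5.06 with sex as a term. That term is estimated within uninjected and *Lrp2* sh2 only. In *Lrp2* sh2 the 1 library without Y-linked counts was replicate 1, where *Itgax* was at 14.1 CPM against 5.30 and 4.25 CPM. *Itgb2*, the beta chain it shares with complement receptor 3, rose by 1.37 (SE 0.09, adjusted *P* = 1.26e-05), and *Itgam*, the alpha chain of that receptor, by 1.12 (SE 0.25, adjusted *P* = 0.011), or by 0.96 without GFP replicate 2. Another gene, *Gm49368*, covers 68.7% of the exon bases of *Itgam* on the same strand, so counts of *Itgam* are uncertain. *C3ar1*, the receptor of the C3a fragment, rose from 20.3, 19.3 and 21.7 CPM to 61.8, 50.005 and 51.7 CPM (log2FC 1.42, SE 0.10, adjusted *P* = 1.67e-05). *Cd93*, in contrast, had a log2FC of −0.05 (SE 0.11).

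Of the 9 other regulators tested, 2 fell with nSREBP2. *Clu* fell from 479, 532 and 391.99 CPM to 261, 211 and 193 CPM (log2FC −1.07, SE 0.13, adjusted *P* = 0.00042). *Susd4*, a membrane inhibitor of the C3-cleaving enzymes, fell from 8.97, 7.34 and 10.8 CPM to 4.56, 3.85 and 4.90 CPM (log2FC −1.02, SE 0.20, adjusted *P* = 0.00558). Both were near the limit of 1: *Clu* was at −0.97 without GFP replicate 2 and −0.98 without nSREBP2 replicate 3, and *Susd4* at −0.87 without GFP replicate 3 and −0.93 without nSREBP2 replicate 2. *Cr1l*, a membrane cofactor and decay accelerator in mice, had a log2FC of 0.00 (SE 0.07) and did not pass the test. *Vtn*, which encodes vitronectin, an inhibitor of the terminal complex, was higher at the adjusted *P* alone (log2FC 0.75, SE 0.12, adjusted *P* = 0.00221). The median log2FC over the 26 genes was 0.25, beside −0.02 over all genes tested.

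With *Lrp2* sh2, 5 of 26 other complement genes differed from ctrl sh, 4 higher and 1 lower, where 2.98% of all genes were higher and 1.78% lower. *Masp1* went from 1.94, 2.42 and 2.36 CPM to 9.72, 8.91 and 10.9 CPM (log2FC 2.14, SE 0.18, adjusted *P* = 0.000123), and was as high without replicate 1 of *Lrp2* sh2 (2.15). *Csmd1*, a large membrane protein gene of the complement inhibitor family known mainly from neurons, rose by 1.26 (SE 0.14, adjusted *P* = 0.000515). *Susd4* rose from 5.47, 6.63 and 7.17 CPM to 11.7, 13.6 and 13.9 CPM (log2FC 1.04, SE 0.15, adjusted *P* = 0.00161), whereas it fell with nSREBP2; the difference between these changes was not tested. *Clu* fell from 1209, 915 and 1050.3 CPM to 541, 437 and 579 CPM (log2FC −1.02, SE 0.13, adjusted *P* = 0.000791). *Itgax* rose by 1.53 (SE 0.44, adjusted *P* = 0.0415), from 3.67, 2.34 and 2.19 CPM to 14.1, 5.30 and 4.25 CPM, and its adjusted *P* was 0.101 without *Lrp2* sh2 replicate 1 (log2FC 0.80), 0.0519 without *Lrp2* sh2 replicate 2, and 0.123 and 0.137 without ctrl sh replicates 2 and 3. *Clu* was at −0.92 without ctrl sh replicate 1 and −0.91 without *Lrp2* sh2 replicate 2, and *Susd4* at 0.92 without ctrl sh replicate 1 and 0.98 without *Lrp2* sh2 replicate 3. The C1q genes had log2FC of 0.18 to 0.30 in this comparison and did not pass. The median over the 26 genes was 0.18, beside 0.01 over all genes tested.

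With *Lrp2* sh1, 0 of 27 other complement genes passed against ctrl sh, either by edgeR with or without the limit on log2FC or by DESeq2. By edgeR, 7 had an unadjusted *P* under 0.05, 2 higher and 5 lower, beside 19.7% of all genes. *Masp1* had a log2FC of 0.65 (SE 0.22), *Itgax* −0.44 (SE 0.28), *Clu* 0.00 (SE 0.10) and *Susd4* 0.01 (SE 0.17). Against uninjected libraries, 0 of 26 genes passed with GFP and 0 of 26 with ctrl sh by either tool. By edgeR, 5 and 6 had an unadjusted *P* under 0.05, beside 19.8% and 25.7% of all genes. At the adjusted *P* alone, 1 gene was lower with GFP and 2 with ctrl sh, beside 1.82% and 3.37% of all genes. *Vtn* was among them in both (GFP log2FC −0.63, SE 0.12, adjusted *P* = 0.0362, and ctrl sh −0.90, SE 0.18, adjusted *P* = 0.0256).

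**Figure D4:**
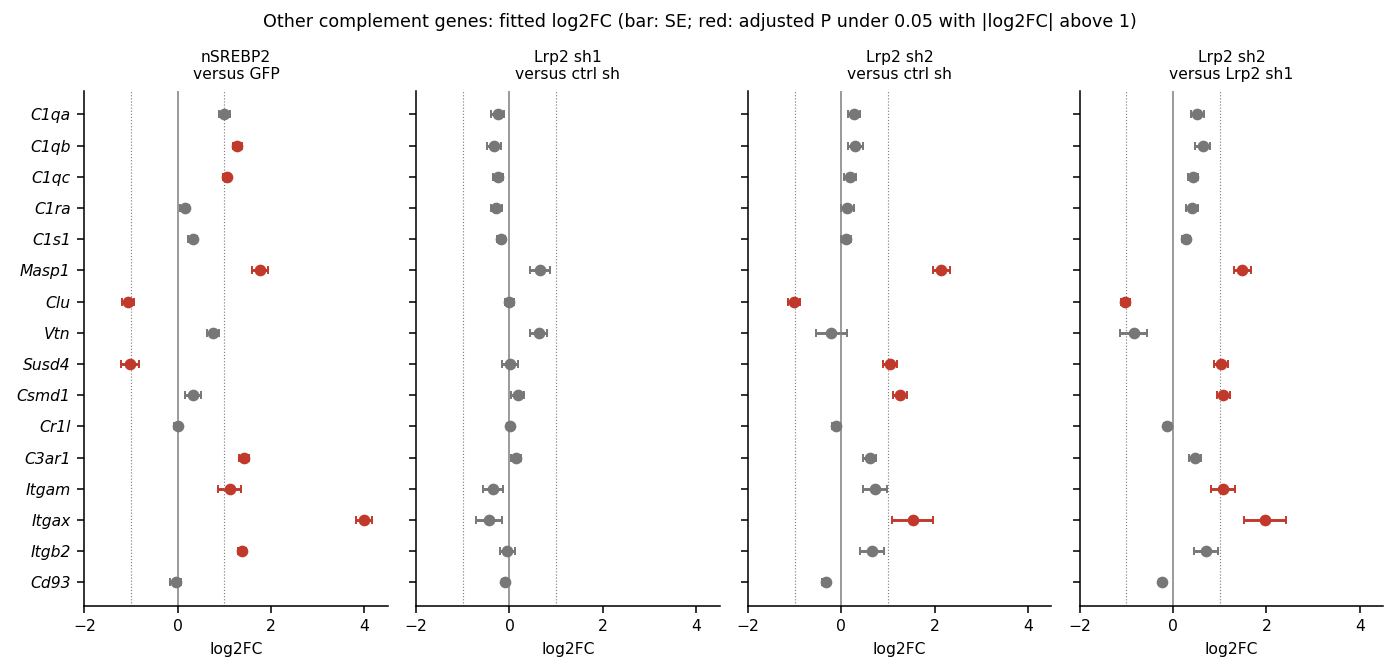
Fitted log2FC (x axis) of 16 complement genes outside the members, 1 panel for each of 4 comparisons, with the SE as a bar, dotted lines at −1 and 1, and red for genes past both limits. Itgax lies at 3.99 for nSREBP2 versus GFP and at 1.53 for Lrp2 sh2 versus ctrl sh, and no gene is red for Lrp2 sh1 versus ctrl sh.

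Markers of other cells moved with some of these results. The 13 macrophage and microglia markers summed to 1023 to 1191 CPM in nSREBP2 against 456 to 523 CPM in GFP, and 7 of the 13 passed both limits, all higher, beside 4.71% of all genes. Among them *Lyz2*, the lysozyme gene of macrophages, rose by 2.61 (SE 0.13, adjusted *P* = 1.83e-06) and *Trem2*, a receptor of phagocytes, by 2.42 (SE 0.16, adjusted *P* = 1.41e-05). The C1q genes, *C3ar1*, *Itgam*, *Itgax* and *Itgb2* are also known from these cells, and *C3* and *Serping1* from fibroblasts. In *Lrp2* sh2 the macrophage sum was 737 CPM in replicate 1, the library with the highest *C3*, and 555 and 519.6 CPM in replicates 2 and 3, against 467 to 484 CPM in ctrl sh. Replicates 2 and 3 had *C3* at 19.3 and 19.1 CPM beside macrophage sums below the 559 to 598 CPM of uninjected libraries, where *C3* was 6.83 to 7.64 CPM. Fibroblast markers summed to 72573 to 86910 CPM in nSREBP2 against 35293 to 44857 CPM in GFP, and to 42982 to 51583 CPM in *Lrp2* sh2 against 33558 to 48024 CPM in ctrl sh. The part of these cells in the complement results was not tested. Of 16 rod photoreceptor markers, 13 were higher and 1 lower with *Lrp2* sh2 than with ctrl sh, beside 2.98% and 1.78% of all genes. Their median log2FC was 2.86. Without *Lrp2* sh2 replicate 1, 10 were higher, beside 2.57% of all genes, and 2 lower, with a median of 2.05. Their sum, in which *Abca4* had the highest mean of both groups, was 692, 218 and 254 CPM in *Lrp2* sh2 replicates 1, 2 and 3 against 201 to 308 CPM in ctrl sh. With nSREBP2 the rod sum was 434 to 616 CPM against 213 to 532 CPM with GFP. Of the 16, 3 were higher and 1 lower, beside 4.71% and 1.96% of all genes. Their median log2FC was 1.22, and 15 of the 16 values were positive, beside 8433 of all 17927 genes. The part of rods was not tested either.

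**Figure D5:**
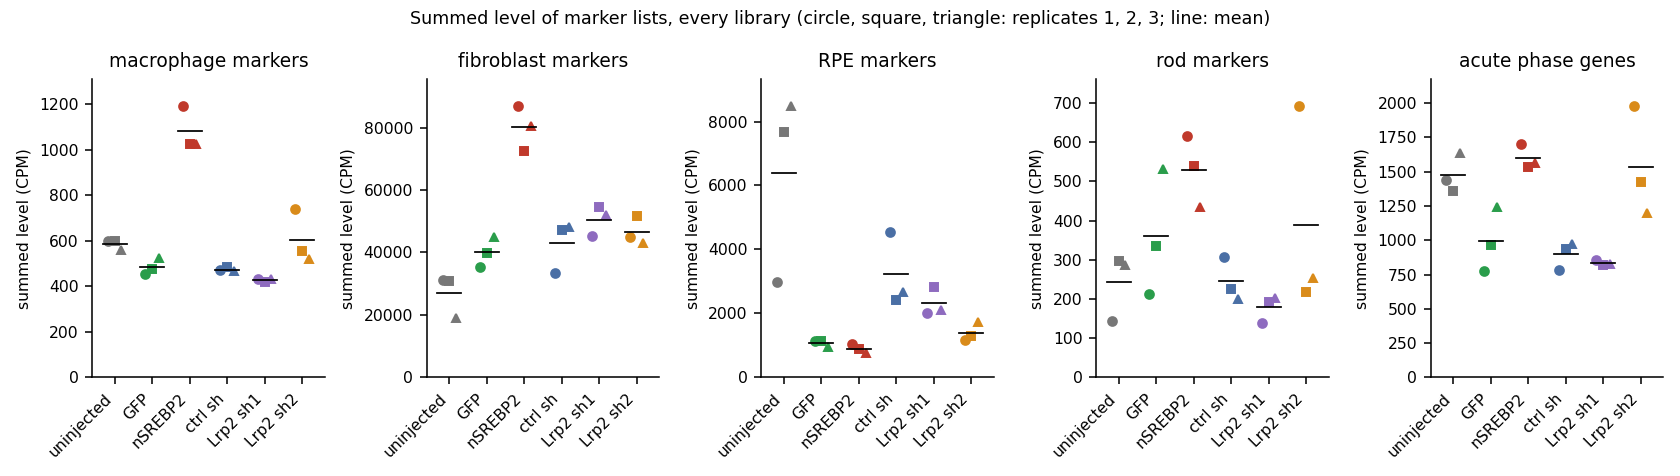
Summed level (CPM, y axis from 0) of marker lists for macrophages, fibroblasts, RPE and rods and of acute phase genes in each library, by group on the x axis, with the mean of each group as a line. Macrophage and fibroblast sums were highest with nSREBP2 (1023 to 1191 CPM and 72573 to 86910 CPM), and the RPE sum was highest in uninjected libraries (2996 to 8485 CPM).

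Genes of the acute phase and cytokine response, through which complement genes are known to be induced in inflammation, were listed beside the members. Their sum was 1361 to 1634 CPM in uninjected, above 776 to 1244 CPM in GFP and 786 to 970 CPM in ctrl sh. It was 1532 to 1704 CPM with nSREBP2 and 1199.5 to 1979 CPM with *Lrp2* sh2, both overlapping uninjected. Against uninjected, 3 of 17 were lower past both limits with ctrl sh and 1 of 17 with GFP, beside 1.51% and 1.19% of all genes. Median log2FC was −0.78 and −0.41. With nSREBP2, 7 of the 18 tested rose and 1 fell, beside 4.71% and 1.96% of all genes. The largest changes were in *Serpina3n*, a protease inhibitor of the acute phase (log2FC 4.0, SE 0.22, adjusted *P* = 5.24e-06), and in the cytokine genes *Il1b* (1.87, SE 0.23, adjusted *P* = 0.00045) and *Il6* (1.78, SE 0.42, adjusted *P* = 0.0151). With *Lrp2* sh2, 6 of 18 rose, beside 2.98% of all genes, led by *Lcn2*, the lipocalin of the acute phase (5.87, SE 1.09, adjusted *P* = 0.00565), *Serpina3n* (3.99, SE 0.53, adjusted *P* = 0.00101) and the chemokine gene *Ccl2* (2.46, SE 0.32, adjusted *P* = 0.00101). *Lcn2* was again highest in replicate 1, at 58.7 CPM beside 5.88 and 9.66 CPM in replicates 2 and 3. Without that library 5 of the 18 rose, beside 2.57% of all genes, and the log2FC was 4.19 for *Lcn2*, 3.08 for *Serpina3n* and 2.05 for *Ccl2*. Of the 21 interferon-related genes, 1 was higher past both limits with nSREBP2, beside 4.71% of all genes. By these limits the list was near that share. The gene was *H2-K1*, an antigen presentation gene (1.62, SE 0.11, adjusted *P* = 1.28e-05). At the adjusted *P* alone, 6 of the 21 were higher and 1 lower, beside 12.6% and 8.47% of all genes. Their median log2FC was 0.31. The list summed to 1239 to 1366 CPM with nSREBP2 against 733 to 922 CPM with GFP.

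By the root mean square difference of centred log2 CPM over the 18 libraries, the genes with a pattern most like that of *C3* among 15686 were *Ccr2* (0.46), the receptor of CCL2, then *Slc1a7* (0.55), *Ppef2* (0.57), *Pla1a* (0.58) and *Cplx3* (0.59). *Ccr2* had group means of 10.2 CPM in uninjected, 7.26 in GFP, 28.6 in nSREBP2, 5.95 in ctrl sh, 7.41 in *Lrp2* sh1 and 25.4 in *Lrp2* sh2. In that order *Slc1a7* had 1.12, 1.21, 6.51, 0.584, 0.883 and 3.47 CPM, and *Ppef2* 2.54, 1.68, 8.87, 1.05, 1.44 and 5.05 CPM. *Pla1a* had 4.63, 4.38, 15.7, 4.31, 3.59 and 13.4 CPM, and *Cplx3* 1.24, 1.08, 5.42, 0.523, 1.13 and 3.36 CPM. The cell types behind these patterns were not tested. For *Cd55* the nearest were *Wnt9a* (0.20), a Wnt ligand, *Adamts5* (0.21), a matrix protease, *Plp2* (0.21), *AW551984* (0.21) and *Thy1* (0.22), a surface protein of fibroblasts and neurons. *Wnt9a* had group means of 21.9, 25.5, 58.7, 23.4, 38.1 and 46.0 CPM in the same order.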

How the data were processed

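RNA-seq of RPE was analysed from 18 mice in 6 groups of 3 libraries, with groups and replicate numbers from the sample labels; the hairpin that the labels name by LacZ was taken as ctrl sh. RNA was depleted of ribosomal RNA before directional, paired-end sequencing. The deposited values are whole-number counts per gene without normalization, which the authors made by mapping reads to GRCm38 and counting with STAR (per the paper's methods and the submitters' processing notes). The annotation and the strand setting used in counting are not given in the sources used here. No column holds a comparison made by the authors.

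For each comparison a model over all genes was fitted to the 6 libraries of its groups. The two-sided quasi-likelihood test of edgeR (version 4.0.16, R 4.3.3) followed filtering by filterByExpr and TMM normalization, with Benjamini-Hochberg adjustment over all genes tested. Calls needed an adjusted *P* under 0.05 and an absolute log2FC above 1. Levels are TMM-normalized CPM, and log2 CPM used a pseudocount of 0.5. DESeq2 1.42.0 replaced edgeR as an alternative, because the study's methods name it, and other alternatives changed the normalization, the filter, the libraries fitted, a term for sex and a replicate block. Marker lists and acute phase genes without *Lrp2* sh2 replicate 1 were added after seeing the data. The fit was tested on simulated data. Of 52636 genes, 16093 had no counts in any library, and 49035 identifiers matched GENCODE M21, which gave positions and exon lengths. The upper limit for a count of 0 was taken as 3 counts. Members and gene lists were chosen with earlier results of these data known. Genes named beside the members were complement genes called in any of 6 comparisons or the 3 most abundant of each list, the 5 nearest in pattern to *C3* and *Cd55*, and up to 3 called genes with the largest log2FC from each of the acute phase and interferon lists; *C1qa*, *Vtn*, cell markers and genes named only as scarce were added after their values were seen, and 1 gene that the rule names is not reported here. Replicate libraries differed by more than sampling noise, and each counted as 1 sample.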

Additional observations from a re-analysis of the deposited data

Results flagged for a closer look

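The 2 hairpins against *Lrp2* differed from each other in 6 of the 25 complement genes tested outside the members, where 5.13% of all genes differed. The test was edgeR's quasi-likelihood test of *Lrp2* sh2 versus *Lrp2* sh1 itself, which leaves out the ctrl sh libraries that both share. *Masp1* was higher with *Lrp2* sh2 by a log2FC of 1.49 (SE 0.18, adjusted *P* = 0.000296), higher in 3 of 3 libraries, and by 1.49 without *Lrp2* sh2 replicate 1. *Csmd1* was higher by 1.08 (SE 0.13, adjusted *P* = 0.000389), and by 0.99 without *Lrp2* sh2 replicate 2. *Susd4* was higher by 1.02 (SE 0.15, adjusted *P* = 0.00111), and its values with *Lrp2* sh1 replicate 1 or 3 or *Lrp2* sh2 replicate 2 or 3 left out were 0.92 to 0.99. *Clu* was lower, at −1.02 (SE 0.11, adjusted *P* = 0.000129), and at −0.96 and −0.91 without *Lrp2* sh1 replicate 2 and *Lrp2* sh2 replicate 2. *Itgam* was higher by 1.07 (SE 0.25, adjusted *P* = 0.0134), and by 0.81 without *Lrp2* sh2 replicate 1. Its counts are uncertain because of the overlap with *Gm49368*. *Itgax* was higher by 1.97 (SE 0.44, adjusted *P* = 0.0106), by 1.23 without *Lrp2* sh2 replicate 1 (adjusted *P* = 0.0124), and its adjusted *P* was 0.0507 without *Lrp2* sh1 replicate 1. The macrophage markers beside *Itgam* and *Itgax* summed to 737, 555 and 519.6 CPM in *Lrp2* sh2 replicates 1 to 3 and to 419 to 434 CPM in *Lrp2* sh1, and their part in these differences was not tested.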

How the results depend on the processing

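No call past the limits was reversed in the alternatives run. Of 468 alternative values of member log2FC, 459 moved by less than the spread and 13 changed sign, and of 1248 for other named complement genes, 1219 kept their side of the limits and 56 changed sign. Values that changed sign were no larger than 0.26 as reported, and among them *C2* went from 0.26 to −0.08 for nSREBP2 versus GFP with a term for sex. With the adjusted *P* alone, called genes numbered 3770 for nSREBP2 versus GFP, 949 for *Lrp2* sh1 and 3268 for *Lrp2* sh2 versus ctrl sh, 442 for GFP and 1157 for ctrl sh versus uninjected, and 4029 for *Lrp2* sh2 versus *Lrp2* sh1. In that setting members past it numbered 5, 1 and 5 in the first 3 of these and 2 between hairpins, and other complement genes numbered 8 for *Lrp2* sh2 versus ctrl sh, 1 for GFP, 2 for ctrl sh and 14 between hairpins. For GFP versus uninjected, called genes numbered 401 with DESeq2, 554 without a filter, 534 with all 18 libraries in 1 fit and 404 with a term for sex, and 1 other complement gene passed with all 18 libraries. For ctrl sh versus uninjected they numbered 687 without a filter and 746 with all 18 libraries, and 1 member and 1 other complement gene passed with the term for sex. The causes were not tested.

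That term moved the log2FC of *C3* to 4.12 for nSREBP2 versus GFP, 3.78 for *Lrp2* sh2 versus ctrl sh, 3.49 between hairpins, −0.92 for GFP and −1.09 for ctrl sh versus uninjected. It is estimated within uninjected and *Lrp2* sh2 only, where replicate 1 of *Lrp2* sh2 is the library without Y-linked counts.

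Replicate numbers did not pair the samples: correlations of same-numbered libraries were −0.263 to 0.318, and no comparison had all above 0.1. With a replicate block, called genes numbered 131 for ctrl sh versus uninjected, and the block changed no count of members or other complement genes by over 1.5 times.

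Leaving out 1 library at a time, called genes numbered 967 to 1344 for nSREBP2 versus GFP, 110 to 221 for *Lrp2* sh1 and 698 to 891 for *Lrp2* sh2 versus ctrl sh, 57 to 362 for GFP and 79 to 423 for ctrl sh versus uninjected, and 759 to 1037 for *Lrp2* sh2 versus *Lrp2* sh1. In the same order other complement genes numbered 8 to 9, 0, 3 to 4, 0 to 1, 0 and 3 to 6, and members past the limits 3, 0, 2, 0, 0 and 1 to 2.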

Other observations

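By edgeR's adjusted *P* alone, 12 of the 25 other complement genes tested were higher with *Lrp2* sh2 than with *Lrp2* sh1 and 2 were lower, where 10.2% and 12.3% of all genes were. Without *Lrp2* sh2 replicate 1, 8 of 27 were higher and 2 lower, where 1531 and 2031 of all 18474 genes were. The C1q genes were among the 12 that were higher with all libraries. Their log2FC was 0.52 (SE 0.13, adjusted *P* = 0.0205) for *C1qa*, 0.64 (SE 0.16, adjusted *P* = 0.0163) for *C1qb* and 0.42 (SE 0.11, adjusted *P* = 0.0224) for *C1qc*. Without that library *C1qb* was at 0.45 (adjusted *P* = 0.0479), while *C1qa*, at 0.38 (adjusted *P* = 0.0667), and *C1qc*, at 0.29 (adjusted *P* = 0.0629), did not pass.

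Other cell types also differed. Endothelial markers summed to 1373 to 1436 CPM with nSREBP2 against 1780 to 2282 CPM with GFP, and to 1270 to 1324 CPM with *Lrp2* sh2 against 1938 to 2035 CPM with ctrl sh, with 7 and 8 of 9 genes lower at the adjusted *P* alone, beside 8.47% and 9.48% of all genes. Neutrophil markers were scarce throughout, at 10.3 to 14.2 CPM with nSREBP2 and 4.10 to 5.95 CPM with GFP. Blood markers summed to 353 to 443 CPM with *Lrp2* sh2 against 642 to 812 CPM with ctrl sh, and all 6 were lower at the adjusted *P* alone (median log2FC −0.80), or 5 without *Lrp2* sh2 replicate 1. With nSREBP2 they summed to 445 to 695 CPM against 483 to 659 CPM with GFP. *Lrp2* itself, the hairpin target, stood at 25.1 to 37.7 CPM with nSREBP2, against 87.9 to 176 CPM with GFP.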
